A study of Arabidopsis thaliana with 12 samples.

Results

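The nrpe1 mutant was compared with wild type at 4213 regions of 500 bp that were listed in the tables of both repeats, out of 6125 regions listed in either table. Small RNAs had been sequenced from whole Arabidopsis thaliana seedlings, 10 days old, raised on MS plates at 22 °C in days of 16 h light and 8 h dark. The series holds 12 libraries of 6 genotypes, with 2 repeats of each, and the nrpe1 comparison rests on 4 of them. Wild-type plants carried no labelled mutation, and the mutant libraries were labelled nrpe1-/-. The hda6 and nrpd1 (nrpd1-/-) mutants are used below only for contrast, and the genotype of hda6 is written had-/- for repeat 1 and hda6-/- for repeat 2. The sources used here name neither the mutant alleles nor the ecotype. NRPE1 transcripts were not measured, so the genotypes rest on the labels. In whole seedlings, fewer cells that make a small RNA and less of it per cell cannot be told apart.

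NRPE1 is the largest subunit of RNA polymerase V, a plant enzyme of RNA-directed DNA methylation. In that pathway RNA polymerase IV, whose largest subunit is NRPD1, makes the precursors of 24-nucleotide siRNAs. RNA polymerase V makes longer scaffold transcripts at the target, where siRNAs bound to ARGONAUTE proteins base-pair and recruit the DNA methyltransferase DRM2. HDA6 is a histone deacetylase that acts in silencing of transposons and repeats. In the centromere-proximal heterochromatin of Arabidopsis, the remodeller DDM1 and the methyltransferases MET1 and CMT2 also keep transposons methylated.

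The 7 sequences here, from RefSeq TAIR10.1, show what the most and the least affected regions look like. The first 4 come from regions that were among the most strongly lowered in nrpe1, and capitals mark the bases covered by 24-base words that occur in all 8 of the most lowered regions. They are shown because a single repeated sequence ran through regions on different chromosomes. Gene labels tell what the whole 500 bp region overlaps, at least in part, so the printed bases themselves need not be coding or genic.
Beside TIC, chr3:7922105-7922304, + strand: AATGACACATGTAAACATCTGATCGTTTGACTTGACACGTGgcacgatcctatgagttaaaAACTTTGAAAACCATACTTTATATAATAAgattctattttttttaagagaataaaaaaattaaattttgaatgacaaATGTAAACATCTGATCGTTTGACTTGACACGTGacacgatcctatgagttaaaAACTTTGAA
Within the non-coding RNA gene AT3G03165, chr3:5380130-5380329, + strand: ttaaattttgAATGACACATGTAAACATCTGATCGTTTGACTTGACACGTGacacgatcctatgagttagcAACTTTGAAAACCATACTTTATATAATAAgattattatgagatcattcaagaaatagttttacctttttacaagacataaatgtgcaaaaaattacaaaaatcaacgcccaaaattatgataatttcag
In the coding sequence of RR13, chr2:11556200-11556399, + strand: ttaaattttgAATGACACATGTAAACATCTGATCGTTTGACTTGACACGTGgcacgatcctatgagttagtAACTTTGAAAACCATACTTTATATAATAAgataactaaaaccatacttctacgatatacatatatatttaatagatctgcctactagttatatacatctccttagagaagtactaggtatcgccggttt
Near the centromere of chromosome 5, chr5:12091567-12091766, + strand: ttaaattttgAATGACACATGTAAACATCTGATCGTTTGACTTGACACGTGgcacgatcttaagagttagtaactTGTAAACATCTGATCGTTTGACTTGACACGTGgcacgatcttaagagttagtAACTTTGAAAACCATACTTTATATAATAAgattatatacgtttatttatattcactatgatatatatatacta
The other 3 come from a region beside the solo LTR locus, where almost nothing was left in nrpe1, from the most raised region, and from an arm region that hardly differed from wild type. Capitals mark CG sites, where MET1 maintains methylation, and are 5, 11 and 10 in number in these stretches.
Beside the solo LTR, chr5:9877651-9877850, + strand: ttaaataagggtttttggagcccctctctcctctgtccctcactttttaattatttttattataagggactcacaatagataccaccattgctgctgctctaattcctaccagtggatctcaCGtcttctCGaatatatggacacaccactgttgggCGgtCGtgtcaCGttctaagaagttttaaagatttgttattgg
Most raised region, chr1:16286651-16286850, + strand: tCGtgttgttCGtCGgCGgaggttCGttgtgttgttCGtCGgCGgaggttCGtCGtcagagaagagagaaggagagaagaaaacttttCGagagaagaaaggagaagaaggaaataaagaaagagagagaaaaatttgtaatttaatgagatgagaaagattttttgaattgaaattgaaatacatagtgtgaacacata
Kept region in AT2G16030, chr2:6974651-6974850, + strand: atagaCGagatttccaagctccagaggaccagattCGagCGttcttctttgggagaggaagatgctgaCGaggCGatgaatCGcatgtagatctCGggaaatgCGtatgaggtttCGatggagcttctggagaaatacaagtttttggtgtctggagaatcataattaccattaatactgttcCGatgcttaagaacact

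Small RNAs fell over most of the chromosome arms in nrpe1, while the total near the centromeres differed little from wild type. Each value is a whole-number score per region, deposited by the authors and treated as a normalized abundance. Of 4213 regions, 1868 were lowered (44.3%) and 43 were raised (1.02%) at a limma adjusted p under 0.05, with the repeat as a block, which together makes 1911 called regions (45.4%). Arms are taken as everything beyond 3 Mb from the centromere position, which is the assembly gap, and the pericentromere as everything within 3 Mb. On the arms 1137 of 1227 regions were lowered, 1 was raised and 89 were not called. In the pericentromere 731 of 2986 were lowered, 42 were raised and 2213 were not called. Arm regions supplied 32.8% of the summed wild-type score in repeat 1 and 30.8% in repeat 2, and only 8.40% and 7.66% of the summed nrpe1 score. In hda6 the arm share was 23.9% and 24%. The summed pericentromeric score was 847633 and 702960 in wild type and 910664 and 620976 in nrpe1, higher in repeat 1 and lower in repeat 2.

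The labels do not say that the repeats grew as separate cultures, and the p-values reflect the spread between these libraries alone, technical or not. The count of raised regions depended on 1 library and on the scaling: it was 1250 without repeat 2 of nrpe1, 19 without repeat 2 of wild type, and 2036 when libraries were scaled to a common median. The median log2 change over all regions was -0.09 as deposited, 0.17 with median scaling and 0.34 with quantile normalization, so changes are best read relative to it. Under the same settings the median log2 change was 0.24, 0.54 and 0.58 within 1 Mb of the centromere, and -1.23, -1.23 and -0.66 on the arms.

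The share of the wild-type score that remained in nrpe1, taken within each repeat and called percent kept, fell in steps with distance from the centromere. Over all regions its median was 96.5% in repeat 1 and 81.0% in repeat 2. Within 1 Mb of the centromere the median was 139% (quartiles 124% and 154%) in repeat 1 and 109% (97.7% and 121%) in repeat 2. From 1 to 2 Mb it was 103% and 86.2%, with wide quartiles of 40.2% to 136% and 33.7% to 123%. From 2 to 3 Mb it was 42.9% and 37.3%. Both repeats thus gave the same order, with the steepest drop inside the outer pericentromere.

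Beyond 3 Mb the medians flattened at a low level. They were 22.9% and 15.9% from 3 to 4 Mb, 17.7% and 11.3% from 4 to 5 Mb, 14.6% and 10.4% from 5 to 6 Mb, and 16.2% and 11.8% farther out. Dividing each median by that of the innermost 1 Mb removes any factor that scales a whole library. On this relative measure repeat 1 fell from 74.1% at 1 to 2 Mb to 30.8% at 2 to 3 Mb, 16.5% at 3 to 4 Mb and 11.7% beyond 6 Mb, and repeat 2 fell from 78.9% to 34.1%, 14.5% and 10.8%. The same relative measure for hda6 ran from 61.8% to 103% in repeat 1 and from 73.1% to 125% in repeat 2 over the 6 classes, so hda6 showed no drop of that size.

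**Figure D1:**
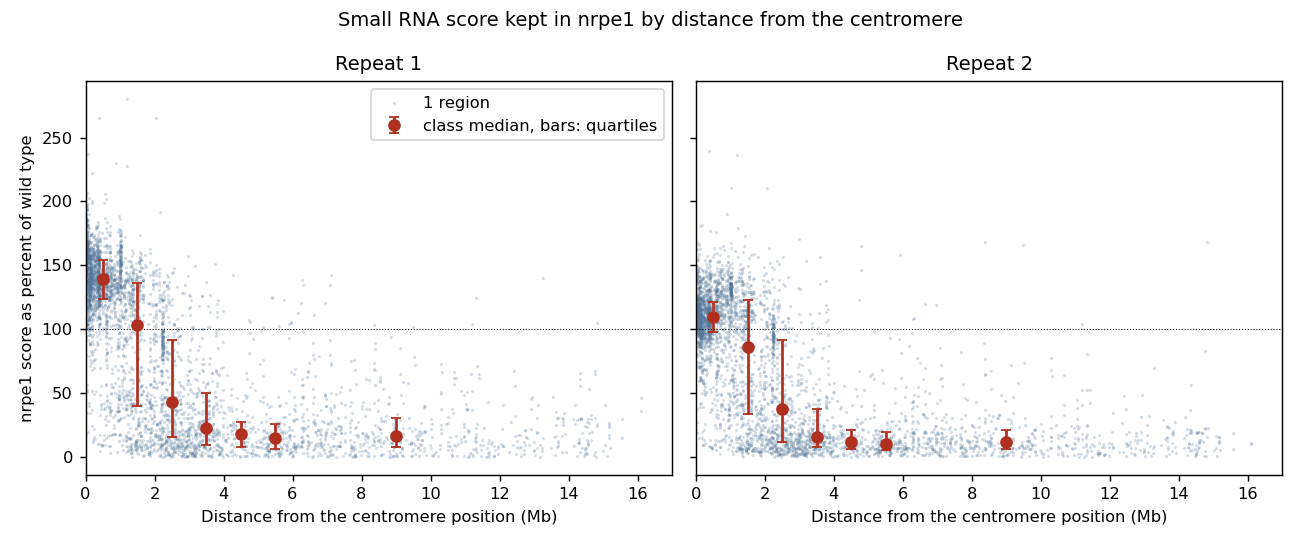
Percent of the wild-type score kept in nrpe1 (y axis) against distance from the centromere position in Mb (x axis), for repeats 1 and 2. Points are 4213 regions, and red symbols are class medians with quartile bars, falling from 139% and 109% within 1 Mb to 16.2% and 11.8% beyond 6 Mb, while points at every level occur between 1 and 3 Mb.

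Along the gradient the shares of retained, partly lost and lost regions all changed. Within 1 Mb, 1.95% of regions kept under 25% in repeat 1 and 89.6% kept over 100%. From 2 to 3 Mb, 35.2% kept under 25%, 47.1% kept between 25% and 100%, and 17.7% kept over 100%. Beyond 6 Mb these shares were 66.1%, 31.8% and 2.13%. All 3 kinds were thus present at 2 to 3 Mb, where chromosome medians in repeat 1 ran from 18.1% on chromosome 1 to 85.3% on chromosome 4. In repeat 2 the shares under 25% were 2.52%, 44.0% and 81.0% at the same distances.

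The degree of dependence carried over from repeat to repeat. Of 1131 regions that kept under 25% in repeat 1, 98.9% also kept under 25% in repeat 2, where their median was 7.93%, and 0 kept over 50%. Of 511 regions at 25 to 50% in repeat 1, 233 kept under 25%, 246 kept 25 to 50% and 32 kept 50 to 100% in repeat 2. Of 2067 regions over 100% in repeat 1, 78.8% were over 100% again and none kept under 50%. The Spearman correlation of percent kept between repeats, across regions that share libraries and are not independent, was 0.882 over 4213 regions, 0.942 over the 1227 arm regions and 0.340 over the 1747 regions within 1 Mb. Arm regions were thus ranked alike in both repeats, while the ranking among regions near the centromere was loose.

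**Figure D2:**
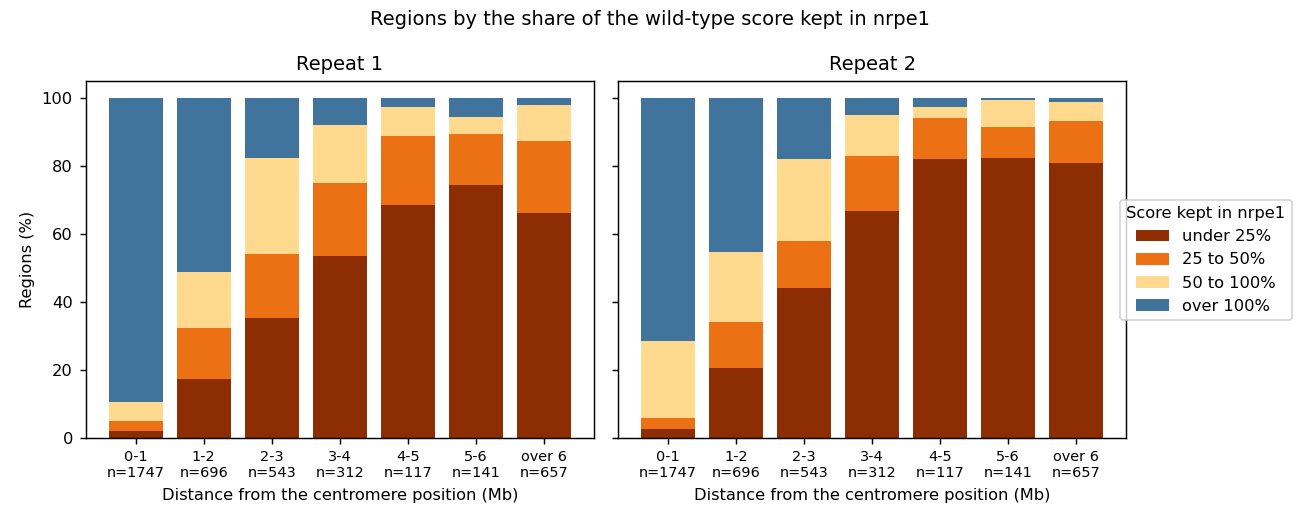
Share of regions (y axis, %) that kept under 25%, 25 to 50%, 50 to 100% or over 100% of the wild-type score in nrpe1, by distance from the centromere position in Mb (x axis), for each repeat. The class under 25% grows from 1.95% and 2.52% of regions within 1 Mb to 66.1% and 81.0% beyond 6 Mb.

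The 10 chromosome sides reached low values between 1.5 and 3.0 Mb from the centromere, 6 of them at 1.5 Mb. The first bin of 0.5 Mb with a median under 50% in both repeats, among bins with at least 10 regions, began 1.5 Mb from the centromere on both sides of chromosome 1, on the left of chromosomes 3, 4 and 5 and on the right of chromosome 4. It began at 2.0 Mb on the left of chromosome 2 and the right of chromosome 5, at 2.5 Mb on the right of chromosome 3 and at 3.0 Mb on the right of chromosome 2. The bin on the right of chromosome 1 had a median of 25.4% in repeat 1 and 17% in repeat 2 (24 regions). The one on the right of chromosome 2 had 47.4% and 22.6% (31 regions).

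A pair of places broke the gradient, and both were chosen after their values were seen. On the left of chromosome 4, 118 regions (68 families of similar sequence) between 2.0 and 2.5 Mb from the centromere kept a median of 91.3% in repeat 1 and 94.4% in repeat 2, and 17 of them were lowered. These regions, chr4:1463001-1931000, lie on the short arm, which carries a well-known heterochromatic knob. On the other side of the same centromere, 36 regions at 2 to 3 Mb kept 17.4% and 14.1%, and 30 were lowered. The shares lowered were 14.4% of the 118 and 83.3% of the 36, against 62.2% of all regions at 2 to 3 Mb. The second place was the tip of the left arm of chromosome 2, chr2:1501-68000, which adjoins the ribosomal RNA gene array in the plant. Its 8 regions kept a median of 102% and 98.8%, and 2 were lowered. In the region from 2001 to 2500, overlapping AT2G01008, wild type scored 461 and 242 and nrpe1 584 and 379. In the region from 67001 to 67500, overlapping AT2G01040, wild type scored 375 and 274 and nrpe1 164 and 108, so loss was partial there. The outermost region, from 1501 to 2000, also scored lower in nrpe1, at 290 and 206 against 375 and 391 in wild type.

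**Figure D3:**
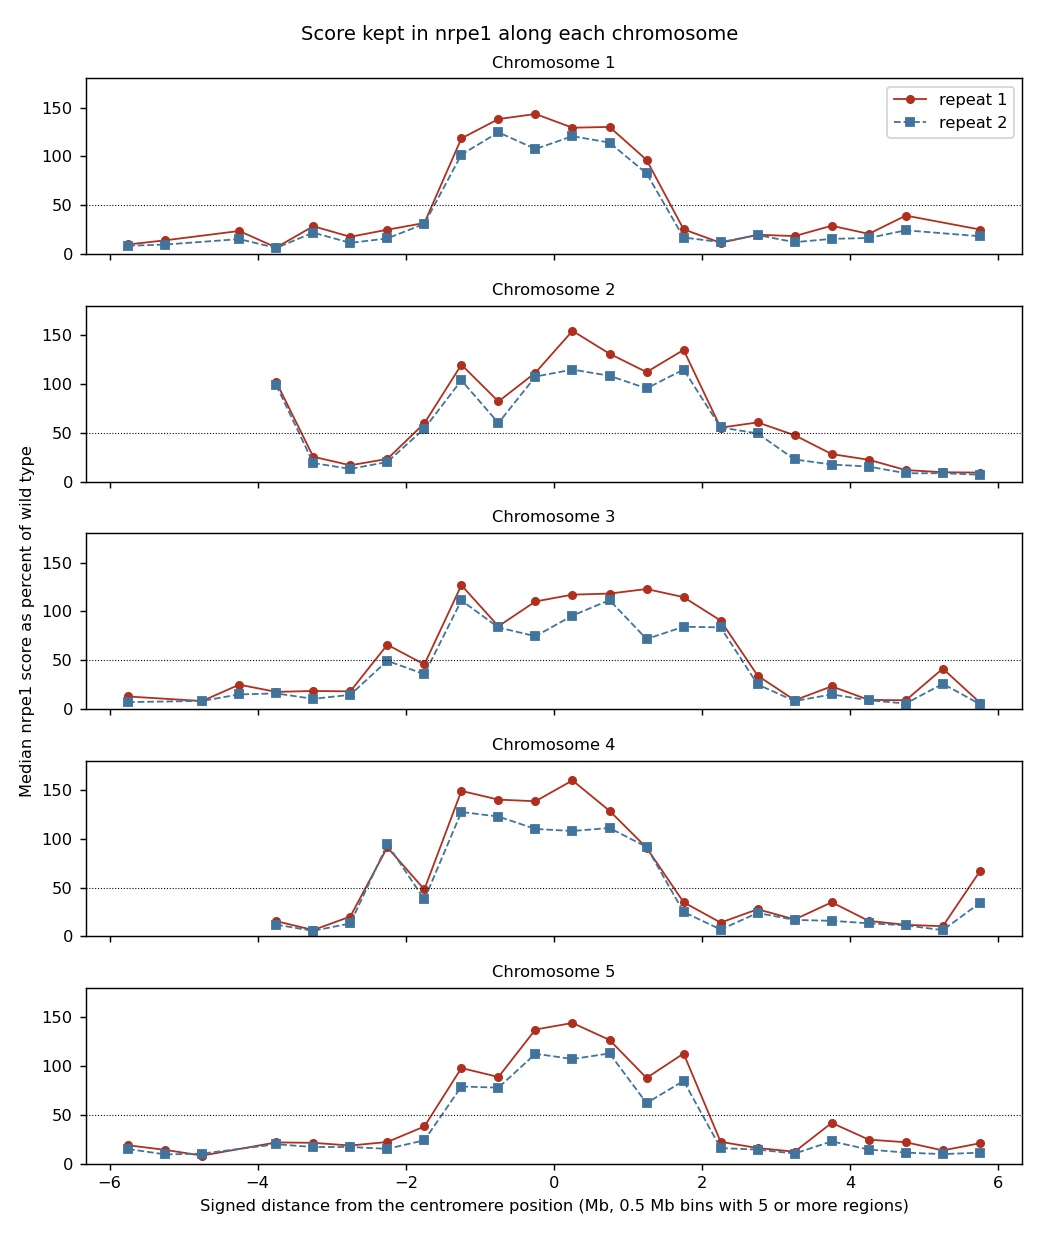
Median percent of the wild-type score kept in nrpe1 (y axis) in bins of 0.5 Mb with 5 or more regions, by signed distance from the centromere position in Mb (x axis), for chromosomes 1 to 5. Both repeats form a plateau that drops below the dotted line at 50% between 1.5 and 3.0 Mb, with high bins at 2.0 to 2.5 Mb on the left of chromosome 4 (91.3% and 94.4%) and at the left end of chromosome 2 (102% and 98.8%).

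The 8 largest falls on the scale of log2(score + 89), which weighs regions of high score most, were at regions that share a repeated sequence. The region beside TIC, a circadian clock gene, had the highest wild-type score of all and scored 11904 and 7428 in wild type and 921 and 511 in nrpe1. The groups did not overlap, which follows largely from choosing the most lowered regions. The log2 change of score + 89 was -3.61 ± 0.35 (SE, limma adjusted p = 1.8e-23). Another region overlaps the coding sequence of RR13, a response regulator gene of the cytokinin family. It scored 3137 and 2077 in wild type and 255 and 146 in nrpe1 (log2 change -3.22 ± 0.26, limma adjusted p = 3.6e-34). The region overlapping AT3G03165 scored 3234 and 2120 in wild type and 246 and 141 in nrpe1. The remaining 5 of the 8 most lowered regions lay near AT3G46345, AT5G23250, AT5G15560, AT5G45730 and AT1G56710, at log2 changes from -3.28 to -3.23.

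All 8 shared 24 words of 24 bases, marked in capitals in the printed sequences. A search after this was seen found at least 1 of these words in 48 of the 4213 regions. Of these, 31 were on arms and 17 in the pericentromere. All 48 were lowered, against 92.7% of all arm regions and 24.5% of all pericentromeric regions. The 8 regions that gave the words are among the 48 and were chosen as the most lowered. The 13 regions that held every word kept similar shares at wild-type scores that ranged widely. In wild type their lowest, median and highest scores were 3026, 3174 and 11904 in repeat 1 and 2028, 2096 and 7428 in repeat 2. In nrpe1 they were 242, 255 and 921, and 138, 151 and 511. They kept 7.61% to 9.76% in repeat 1 and 6.58% to 8.72% in repeat 2. The sources used here do not say how reads that map to several places were counted, and these regions may share reads and are not independent of each other.

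Regions that hold the repeat scored lower in nrpe1 near centromeres as well as on arms. As these regions may share reads, loss at the copies near centromeres cannot be told apart from loss at other copies. The 5 most lowered pericentromeric regions all held a word of the set. The one on chromosome 5 printed above, 0.366 Mb from the centromere position and 2795 bp from AT5G32470, scored 5736 and 3668 in wild type and 560 and 320 in nrpe1. It kept 9.76% and 8.72% (log2 change -3.18 ± 0.30, limma adjusted p = 1.5e-25), in the zone where the median region kept 139% and 109%. The one upstream of MTSSB, which encodes a mitochondrial single-stranded DNA-binding protein, scored 5759 and 3751 in wild type and 474 and 258 in nrpe1. In hda6 the 13 regions with every word had medians of 1559 and 1737, and in nrpd1 medians of 10 and 5. Their nrpe1 scores therefore lay between those of nrpd1 and hda6 in both repeats.

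**Figure D4:**
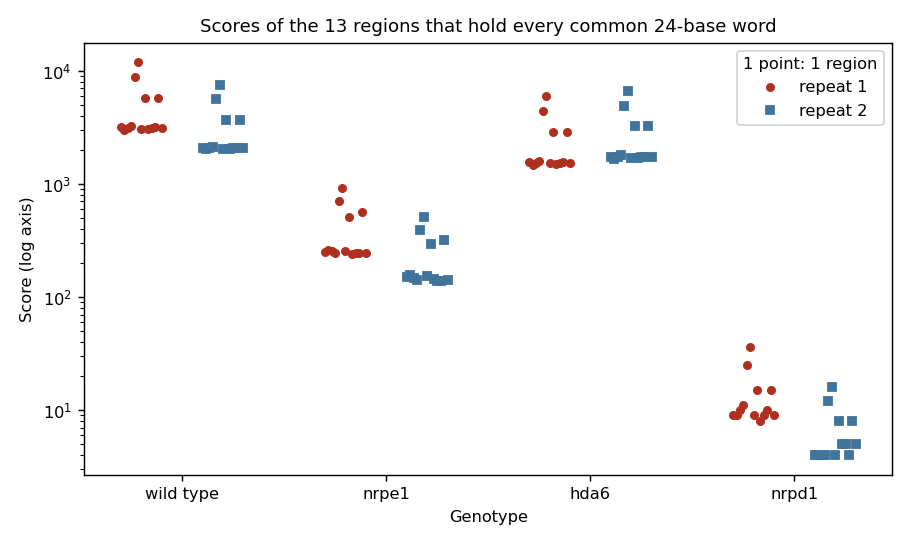
Scores (y axis, log axis) in wild type, nrpe1, hda6 and nrpd1 (x axis) of the 13 regions that hold all 24 common words. Each point is 1 region in 1 repeat; wild-type medians are 3174 and 2096 and nrpe1 medians 255 and 151, and those 2 genotypes do not overlap within a repeat.

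These 48 regions held 19.3% of the arm wild-type score in repeat 1 and 16.8% in repeat 2 through the 31 arm members. They also made up 27 of the 50 regions with the highest wild-type score, beside 22 others within 1 Mb of a centromere. The single other arm region among those 50, upstream of AT3G27140 and made of sequence that occurs once in the genome, was less affected. It scored 3654 and 2752 in wild type and 1299 and 706 in nrpe1 (log2 change -1.63 ± 0.31, limma adjusted p = 3.4e-07). It kept 35.6% and 25.7%, above the arm medians of 17.6% and 12.4%. Without the 48 regions the arm medians were 18.2% and 12.8%.

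Among regions without a common word, a list made after their values were seen, some kept only a few percent of the wild-type score. A region in an intron of AT1G50050 scored 775 and 626 in wild type, 26 and 22 in nrpe1 and 20 and 13 in nrpd1 (log2 change of nrpe1 -2.80 ± 0.20, limma adjusted p = 2.9e-43). A region upstream of AT5G43210 scored 755 and 575 in wild type, 19 and 24 in nrpe1 and 19 and 11 in nrpd1. These 2 regions thus kept 2.52% to 4.17%, with scores of 19 to 26 in nrpe1 beside 11 to 20 in nrpd1. Of their words 53.0% and 51.6% occurred once, their scores were much alike, and they may share reads. A region upstream of emb1220 scored 768 and 579 in wild type, 44 and 35 in nrpe1 and 6 and 0 in nrpd1. A region 116 bp downstream of TPPE, which encodes a trehalose phosphate phosphatase, scored 715 and 564 in wild type, 40 and 35 in nrpe1 and 5 and 0 in nrpd1. A region 598 bp from the pseudogene AT3G31005, only 0.927 Mb from the centromere position of chromosome 3, scored 779 and 431 in wild type, 31 and 26 in nrpe1 and 3 and 1 in nrpd1. Deep loss was therefore found outside the repeat, in this list mainly on arms. Loss near a centromere rests here on the last region alone. Its words had a median of 18 copies and 16.6% of them occurred once, so its reads may come from elsewhere. The same limit holds for the arm regions upstream of emb1220 and near TPPE, where 14.9% and 39.4% of words occurred once.

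Loci known from RNA-directed DNA methylation were covered in part. The solo LTR between AT5G27850 and AT5G27860 is a locus where RNA polymerase V transcripts were described in Arabidopsis. The listed region within 3 kb of it, at 9877501 to 9878000 on chromosome 5, lies 689 bp from AT5G27870 and does not overlap the locus itself. It scored 160 and 109 in wild type and 4 and 2 in nrpe1. It kept 2.5% and 1.83% (log2 change of score + 89 was -1.27 ± 0.12, limma adjusted p = 5.2e-25), and hda6 scored 106 and 99 there. MEA-ISR is a tandem repeat downstream of MEA, an imprinted Polycomb gene. The 2 listed regions within 3 kb of MEA begin 799 bp beyond the gene, and the files do not mark the repeat itself. One region scored 129 and 114 in wild type and 30 and 21 in nrpe1, and the next scored 251 and 215 and 69 and 41. Both were lowered (limma adjusted p = 3e-15 and 5.5e-13), with 18.4% to 27.5% kept, although the log2 change of the first, -0.88, became 0.043 under quantile normalization. Regions within 3 kb of FWA, SDC, ROS1, SUP and AtSN1 are not analysed here.

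Raised regions lay almost entirely in the pericentromere, and 33 of the 43 were within 1 Mb of a centromere. Of the 4213 regions tested, 2986 were pericentromeric and 1747 within 1 Mb. Against 1.02% of all regions, 1.41% of pericentromeric regions and 1.89% of those within 1 Mb were raised. The most raised one, 125 bp from the pseudogene AT1G43205 on chromosome 1, scored 152 and 111 in wild type and 426 and 262 in nrpe1 (log2 change 0.95 ± 0.17, limma adjusted p = 5.7e-08). Its hda6 scores were 163 and 171, so it was high in nrpe1 and not in hda6 (log2 difference 0.73, limma adjusted p = 4.1e-05). A region 164 bp from the pseudogene AT4G07523 scored 164 and 108 in wild type and 435 and 259 in nrpe1. A region on chromosome 3 made mostly of single-copy sequence, 2.05 Mb from the centromere position, scored 134 and 120 in wild type and 356 and 253 in nrpe1, against 91 and 61 in hda6. At a region overlapping the coding sequence of AT2G06555, wild type scored 356 and 220 and nrpe1 663 and 463. At these 4 regions both nrpe1 scores were above both wild-type scores, which follows largely from choosing the most raised. The share of all regions without such overlap was not counted. The most raised regions near AT1G37170 and YY1 changed by 0.77 and 0.58 on the log2 scale. All 6 stayed positive in every setting tried, between 0.41 and 1.68, which follows largely from how they were chosen.

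The single arm region called raised overlapped the miRNA gene AT1G06623 on chromosome 1, 3.19 Mb from the centromere position. It scored 240 and 151 in wild type and 359 and 232 in nrpe1 (log2 change 0.43 ± 0.18, limma adjusted p = 0.033). No arm region was called raised without repeat 2 of wild type, without nrpd1 in the fit or with a pseudocount 10 times smaller.

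Some arm regions kept their small RNAs. The 5 with the change nearest 0 among those above the median wild-type score had log2 changes between -0.04 and 0.12 (limma adjusted p from 0.57 to 0.99). At a region overlapping the coding sequence of AT2G16030, wild type scored 335 and 230 and nrpe1 336 and 212. In the pseudogene AT3G50490 wild type scored 254 and 146 and nrpe1 258 and 144. In the pseudogene AT2G01022, at the tip of chromosome 2, wild type scored 249 and 149, nrpe1 254 and 144 and hda6 579 and 447. Wild type and nrpe1 overlapped at each of these 3 regions, which follows largely from choosing changes nearest 0. The directions of these small changes flipped between settings. Under median scaling all 5 were called raised, at log2 changes of 0.28 in AT2G01022, 0.26 in AT2G16030, 0.28 in AT3G50490, 0.35 upstream of AT3G47250 and 0.42 near AT2G02190 (limma adjusted p = 0.01, 0.015, 0.017, 0.0016 and 0.0018).

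Retained and lost regions differed in sequence and annotation. Of the 1227 arm regions, 1034 kept under 50% in both repeats and 23 kept over 100% in both. The 23 had a median GC content of 41.2% and 18 CG sites, against 26.6% and 8 in the 1034. Each region was given a single class, in the order pseudogene, gene body, 1 kb upstream of a gene and intergenic. Upstream sequence in regions of the earlier classes is therefore not counted. Of the 23, 43.5% were classed as gene body, 34.8% as pseudogene and 0% as upstream, against 15%, 4.64% and 33.4% of the 1034. Within 1 Mb of the centromeres the few lost regions resembled arm regions in base composition. The 81 that kept under 50% in both repeats had a median GC content of 30.2%, against 37.0% for the 1222 that kept over 100%. Their words had a median of 3 copies in the genome, against 15, and 51.9% stood alone rather than in runs of adjoining regions, against 15.1%.

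Across GC classes the boundary moved with position. In regions under 30% GC, the medians kept were 48.6% and 31.4% within 1 Mb, 21.1% and 15% at 1 to 3 Mb, and 18.0% and 12.1% on arms. In regions of 40% GC or more they were 128% and 123%, 109.7% and 109%, and 63.3% and 52.8%. AT-rich regions were thus below the median of their zone near centromeres, and GC-rich regions were above it on arms. The arm class of 40% or more held 62 regions, of which 32 were lowered, against 751 of 770 in the class under 30%. The number of CG sites showed less of this: arm medians were 14.5% and 10.2% with up to 5 sites and 30.7% and 23.4% with over 15. GC content, annotation and copy number move together across these regions, and their separate parts in the result were not tested.

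On arms and at 1 to 3 Mb, regions whose median word occurred once kept least among the copy classes. The arm median was 7.64% and 6.29% where the median word of a region occurred once, 17% and 12.9% with over 1 to 4 copies, 23.3% and 17.3% with over 4 to 10, and 30.1% and 18.6% with over 10. At 1 to 3 Mb it rose from 21.8% and 18.5% to 105% and 97.2%. Within 1 Mb the medians varied little, from 133% and 105% to 138% and 110.2%, but the lower quartile was 43.8% and 37.4% in the 1-copy class and 126% and 98.7% with over 10 copies, and 33.3% and 3.22% of the regions were lowered. In a stricter subset at least 80% of the words of a region occurred once, which does not show where its reads came from, and the region near AT5G15560 that holds the common words is among them. Its 159 arm regions kept only 4.36% and 4.02%, and 154 were lowered (96.9%, against 92.7% of all arm regions). Its 133 regions at 1 to 3 Mb kept 65.2% and 54.1%, and its 9 regions within 1 Mb kept 50.5% and 37.5%. At 1 to 3 Mb the subset was thus above the class of over 1 to 4 copies (46.6% and 43.9%), against the order of the copy classes. The arms were therefore below the flanks in this subset too.

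**Figure D5:**
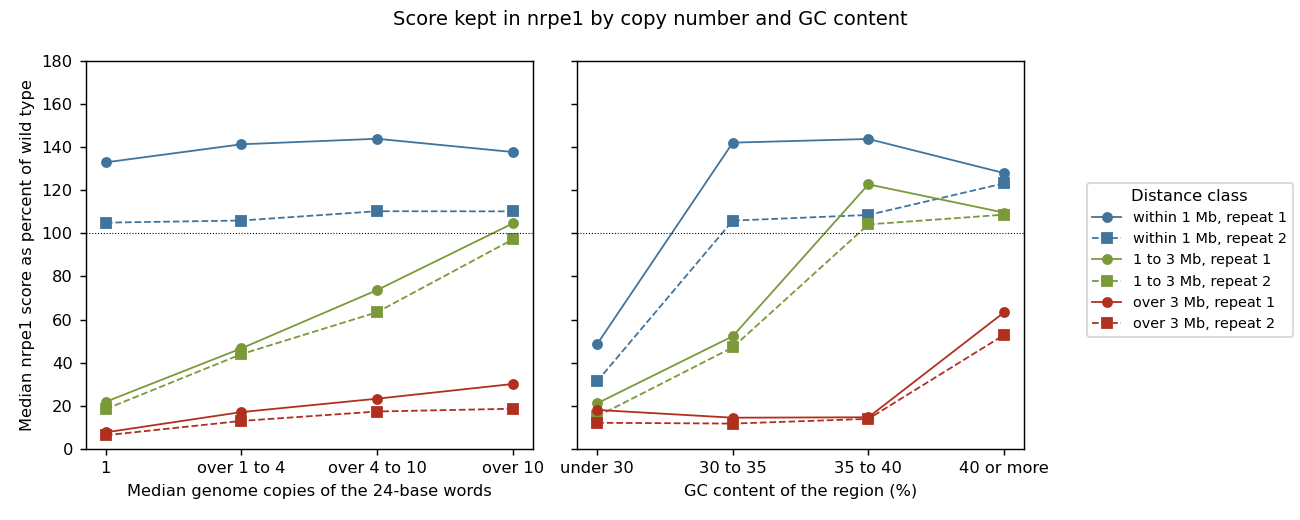
Median percent of the wild-type score kept in nrpe1 (y axis) by median genome copies of the 24-base words (left) and by GC content in % (right), for 3 distance classes and both repeats. Arm medians rise from 7.64% and 6.29% at 1 copy to 30.1% and 18.6% over 10 copies, and medians under 30% GC are the lowest within 1 Mb and at 1 to 3 Mb.

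Regions at genes had the lowest median percent kept on arms and flanks. On arms the 183 gene body regions kept 9.55% and 7.83%, the 381 regions within 1 kb upstream of genes kept 14.5% and 10.8%, the 581 intergenic regions kept 20% and 14.4%, and the 82 pseudogene regions kept 37.4% and 32.8%. Of these, 161, 369, 553 and 54 were lowered. At 1 to 3 Mb gene bodies (13.6% and 13.8%) and upstream regions (13.2% and 11.3%) were low as well, the gene bodies above and the upstream regions near their arm values, whereas pseudogenes, which in this annotation include many transposon remnants, kept 110.4% and 106%. Within 1 Mb all 4 kinds had medians over 100%, including 148% and 111% in 87 gene body regions. Of 19 regions that overlap miRNA genes, 14 were lowered (73.7%, against 44.3% of all regions), 1 was raised and 4 were not called. Of the 13 among them on arms, 11 were lowered (84.6%), against 92.7% of all arm regions. No listed region overlapped the TAS loci, or rRNA and tRNA genes.

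Isolation also went with a lower percent kept. Arm regions that stood alone kept 11.7% and 9.15%, and those in runs of 2 to 3 kept 23.7% and 15.6%. At 1 to 3 Mb the medians rose from 37.6% and 29.0% alone to 122% and 108% in runs of over 10. All 490 regions in runs of over 10 lay within 3 Mb, 380 of them within 1 Mb and 110 at 1 to 3 Mb. By limma 0 were lowered and 3 were raised, against 6.47% and 49.9% lowered among all regions of those zones. The longest arm runs, of 4 to 10, held 30 regions and kept 26.0% and 15.1%. Of these 29 were lowered (96.7%), against 92.4% of lone arm regions. Of 1818 adjoining pairs, 6.71% in repeat 1 and 4.84% in repeat 2 had 1 member under 50% kept and the other above. Among the 1034 pairs within 1 Mb, where few regions kept under 50%, these shares were 0.967% and 1.06%. They were 9.24% and 9.84% at 1 to 3 Mb, and 23.1% and 9.79% on arms. Within 1 Mb and on arms most regions fell on the same side anyway, and agreement of neighbours beyond that was not tested.

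The wild-type level was related to percent kept, more clearly on arms than in the pericentromere. Levels were taken from the other repeat, so that noise in the denominator did not enter. On arms the median kept in repeat 1 was 21.2%, 21.7%, 23.3%, 14.7% and 13.9% from the lowest to the highest quintile of wild-type score. In repeat 2 it was 18.2%, 16.6%, 12.4%, 10.8% and 9.93%. The most abundant arm regions thus kept a smaller share, although their nrpe1 scores were the highest, at medians of 71.5 and 43 against 30 and 23 in the lowest quintile. In the pericentromere the median rose from 122% to 143% in repeat 1 and went from 94.9% to 104% in repeat 2. The quartiles in the top pericentromeric quintile were 33.5% and 158% in repeat 1 and 29.4% and 111% in repeat 2, so that quintile held both strongly lowered and retained regions.

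The relation to wild-type level was small beside that to position and did not hold in every subset. From the lowest to the highest quintile the arm median changed by -7.77 percentage points, the mean of both repeats, by -6.37 without the 48 repeat regions, and by 3.51 among mostly single-copy regions. That last value rests on 12 and 18 regions in the top quintile. In the pericentromere the change was 15.2 points, became -37.0 with 1 region per family and -3.69 with the level from the same repeat, so its direction depended on these choices.

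Compared with hda6, the loss in nrpe1 was deeper on arms. Both contrasts use the nrpe1 libraries of the comparison with wild type, so they are not independent of it. By limma, 2388 regions (56.7%) were lower in nrpe1 than in hda6 and 1009 (23.9%) were higher. On arms 1032 of 1227 were lower and 19 higher, and the median scores were 47 and 28 in nrpe1, 125 and 121 in hda6, and 217 and 170 in wild type. Within 1 Mb, 582 of 1747 were lower and 792 higher. Of the 1868 regions lowered against wild type, 1668 were also lower than in hda6, and 10 were higher. The count higher than in hda6 was 650 without repeat 1 of nrpe1.

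Compared with nrpd1, nrpe1 kept more small RNAs at most regions, but not at all. Scores were higher in nrpe1 at 3704 regions (87.9%), on regions that all have nrpd1 scores of at most 0.199 of wild type, so the direction is no independent result. On arms 858 of 1227 were higher, with nrpe1 medians of 47 and 28 and nrpd1 medians of 1 and 0. The remaining 369 arm regions were not called, and a missed call does not show that the mutants were alike there. Of the 1868 lowered regions 509 were not called higher than in nrpd1. Only 19 regions in repeat 1 and 11 in repeat 2 had an nrpe1 score of 0.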

How the data were processed

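Small RNA libraries of 12 seedling samples were grouped by genotype and repeat from their titles. Per the submitters' processing notes, the authors used Bowtie 0.12.2 and TAIR10. The deposited tables, 1 per repeat (5843 and 4495 regions), give a whole-number score per region and genotype. The sources used here do not give the scaling of the scores, the counting of multiply mapped reads or the choice of regions. Some whole numbers recur at regular steps in the wild-type and nrpe1 columns, so the scores were treated as rounded normalized values and not as counts. Depth is therefore unknown, and no counting interval is given. All wild-type scores were at least 87 in repeat 1 and 91 in repeat 2, and nrpd1 never exceeded 0.197 and 0.199 of wild type, so these libraries may have served to choose the regions. Regions with few small RNAs in wild type are not analysed here.

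The regions in both tables were tested with limma 3.58.1 in R 4.3.3 (trended prior) after adding a pseudocount of 89, the 25th percentile of nonzero scores, and taking log2. A fold change on this scale understates the change of low regions. All 12 libraries shared 1 estimate of spread (5 residual degrees of freedom, infinite prior degrees of freedom), with the repeat as a block because each repeat has its own table. The repeat deviations of wild type and nrpe1 had a correlation of 0.158 across regions, with only 2 pairs. Benjamini-Hochberg adjustment was over 4213 regions. An exact permutation test of 2 against 2 libraries cannot go below p = 0.333 and was not used. The fit was tested on simulated data with 200 of 4213 regions changed in nrpe1. It found 45% of those set to 0.5 on the log2 scale and 98% of those set to 1, and 4.03% of calls were false. Noise was drawn independently for each region at the fitted spread, so a low share of false calls was built in. The real data gave 1911 calls and regions may share reads, so the simulation does not give the error rate of those calls.

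Percent kept is the nrpe1 score over the wild-type score of the same repeat, with no pseudocount. The last listed region ends at the chromosome end of RefSeq TAIR10.1 on chromosome 2 (19698289), from which genes and sequence were taken. Copies were counted as 24-base words on either strand. Regions that share at least 50% of their words form a family (2749 in all). The regions named were at most 1 per family and run: the 8 most lowered, 6 most raised, 6 with the highest wild-type score, 5 most lowered in the pericentromere, 5 arm regions nearest to no change above the median wild-type score, and known loci. The 8 most lowered and the 6 most raised also had to change the same way in both repeats. The members, lists and rules were chosen with earlier results of these data known. Alternatives covered scaling, pseudocount, a filter on low scores, the prior, the libraries fitted, the block, each library left out, the width of the pericentromere and the source of the wild-type level.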

Additional observations from a re-analysis of the deposited data

How the results depend on the processing

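The count of lowered regions (1868) lay between 1720 and 1991 with 1 library left out, was 1841 with median scaling and 1333 with quantile normalization, and was 1863 without the replicate block, which changed none of the counts by over 1.5 times. With median scaling 98.4% of the lowered regions were lowered again, and with quantile normalization 71.1%. A filter that kept regions above the lower quartile of mean score left 933 lowered in all, 536 on arms, 397 in the pericentromere and 1565 lower than in hda6, since it removed low regions from the test. Raised regions (43) numbered 2036 with median scaling, 2184 with quantile normalization, 24 when the pseudocount was 10 times smaller, 213 with no trend in the prior, 317 with only wild type and nrpe1 fitted, 26 without nrpd1, and 19 to 1250 with 1 library left out. In the pericentromere (42) the same settings gave 1995, 2070, 24, 211, 315, 26, and 19 to 1243. On arms (1) they gave 41, 114, 0, 2, 2, 0, and 0 to 7. With the pericentromere set at 2 Mb, 393 of its regions were lowered and 5 arm regions raised; with 4 Mb, 0 arm regions were raised. Counts lower in nrpe1 than in hda6 were 1486 with quantile normalization and 1690 to 2738 with 1 library left out, and counts higher were 650 to 1173. The percent kept (mean of the repeats' medians) within 1 Mb, 124% as deposited, was 162% with median scaling, 167% with quantile normalization and 44.0% in mostly single-copy regions. On arms, 15% as deposited, it was 19.4%, 45.2% and 4.19%. The arm median as a share of that within 1 Mb, 12%, was 27.2% with quantile normalization, 9.68% in mostly single-copy regions and 10.0% with 1 region per family. The change from the lowest to the highest wild-type quintile was -11.8 and -10.7 points on arms with the level from the same repeat and from the mean of repeats, -6.37 without the repeat regions and 3.51 in mostly single-copy regions. In the pericentromere it was -3.69 with the same repeat, -37.0 with 1 region per family and 36.8 in mostly single-copy regions. Subsets without the repeat, by family, and single-copy for the level were chosen after seeing the data. Of 334 values at 28 named regions under alternatives, 315 kept direction and call. Many of these regions were picked for a large change in the same data. Reversed log2 changes were 0.28 (median scaling) and 0.28 (quantile normalization) at AT2G01022, 0.26 and 0.16 at AT2G16030, and 0.043 (quantile normalization) at the first region beside MEA. With 1 library left out, values ran from -0.25 to 0.26 at AT3G50490, -0.18 to 0.17 at AT2G01022, -0.21 to 0.13 at AT2G16030, -0.18 to 0.27 upstream of AT3G47250 and -0.076 to 0.31 near AT2G02190. Where an arm was left with 1 library, that library was assumed to vary like the others. The cause of these changes was not tested.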
